A study of Mus musculus and Rattus norvegicus with 2 samples.

Results

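7SK is a nuclear noncoding RNA made by RNA polymerase III, and its fragments were followed here in 2 small RNA libraries labelled as purified sperm of the caput, the first segment of the epididymis, where sperm begin to mature. One library came from C57BL/6 mice aged 2 months and the other from young adult Sprague Dawley rats of 450 g. Both were untreated, and the number of animals behind each library is not given in the sources used here. A fraction of 18 to 45 nt had been size-selected before sequencing. The sequences studied are those whose matched entry is the Rfam family 7SK: 3611 of 914516 listed mouse sequences and 4586 of 650877 listed rat sequences. These carried 16777 of 11760708 mouse reads and 12612 of 14652889 rat reads. With 1 library per species there is no replicate spread, so no difference between the species was tested. Intervals in parentheses are 95% intervals for counting error only, as PCR reads with no molecular identifiers are not independent molecules.

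In the nucleus, 7SK RNA is the scaffold of a ribonucleoprotein that holds the elongation kinase P-TEFb, made of CDK9 and a cyclin T, in an inactive state. The inhibitor HEXIM binds the hairpin at the 5′ end, where GATC repeats (GAUC in the RNA) form part of its site. MEPCE caps the 5′ end and LARP7 holds the 3′ end with its run of U.

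Mouse Rn7sk, a single-exon noncoding gene of 331 nt, lies on the minus strand of chromosome 9, bases 78175303 to 78175633 of GRCm38 in the GENCODE vM21 annotation. Positions below are counted from its first base. The RNA holds GATC 3 times, starting at bases 13, 42 and 64. Bases 24 to 103, from which most mouse fragments came (chr9:78175531-78175610, minus strand of GRCm38, GATC in capitals), and bases 114 to 153, from which many rat fragments came (chr9:78175481-78175520), are shown first as the context of the fragments.

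Rn7sk 24 to 103: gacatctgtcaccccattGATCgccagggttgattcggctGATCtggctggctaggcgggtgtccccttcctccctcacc

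Rn7sk 114 to 153: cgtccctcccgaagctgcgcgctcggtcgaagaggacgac

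The leading mouse fragments shared their last base and are shown because that common 3′ end was frequent in mouse and rare in rat. Capitals again mark GATC.

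Mouse, bases 39 to 71: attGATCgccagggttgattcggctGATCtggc

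Mouse, bases 38 to 71: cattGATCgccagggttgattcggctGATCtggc

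Mouse, bases 45 to 71: cgccagggttgattcggctGATCtggc

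Mouse, bases 54 to 71: tgattcggctGATCtggc

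The leading rat fragments came from farther along the RNA. Capitals mark the 20-nt stretch, bases 131 to 150, that the 5 leading rat fragments starting at bases 126 to 131 have in common. A longer fragment from base 114 holds it as well.

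Rat, bases 131 to 151: CGCGCTCGGTCGAAGAGGACg

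Rat, bases 126 to 153: agctgCGCGCTCGGTCGAAGAGGACgac

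Rat, bases 126 to 150: agctgCGCGCTCGGTCGAAGAGGAC

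Rat, bases 114 to 150: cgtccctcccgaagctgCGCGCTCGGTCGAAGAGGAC

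Not every read under a 7SK entry could be placed on the mouse 7SK RNA. The reads matched 292 records in mouse and 278 in rat, since the family lists copies of 7SK scattered over genomes. Each read was placed on Rn7sk without gaps, in the sense direction, with at most 2 mismatches. Reads of diverged 7SK copies, or with gaps, would not be placed and are not separated from reads of other RNA. In mouse 12756 reads in 2042 sequences were placed, 76.0% of the 7SK reads (75.4 to 76.7). In rat 8427 reads in 2440 sequences were placed, 66.8% (65.99 to 67.6). Of the placed reads, 96.7% in mouse and 94.2% in rat had no mismatch to the mouse gene. No read of the 16777 in mouse or the 12612 in rat was placed on the antisense strand, counts that allow up to 3 such reads each.

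The placed reads cannot be assigned to the gene Rn7sk alone. Of the 12335 mouse reads without mismatch, 95.9% also occurred letter for letter in Gm24447, 94.2% in Gm26315 and 87.8% in Gm26035, which are further GENCODE genes. Only 3.24% of them (2.94 to 3.57) were in no GENCODE gene other than Rn7sk. For rat, no genome or 7SK reference of its own was used here.

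7SK took a higher share of listed reads in the mouse library. It had 1427 reads per 1000000 listed reads (rpm) in mouse (1405 to 1448) and 861 rpm in rat (846 to 876), which was 1.66-fold higher in mouse, a log2 ratio of rat over mouse of -0.73 (-0.76 to -0.70). The direction was the opposite among distinct sequences, of which 7SK made up 0.395% in mouse and 0.705% in rat, a log2 ratio of 0.84. It was also the opposite among reads with 0 mismatches to their entry, with a ratio of 0.26. In such bulk libraries a lower share of cells with 7SK fragments and less of them per cell cannot be told apart. For placed reads alone the values were 1085 and 575 rpm, a ratio of -0.92 (-0.96 to -0.88). As a family 7SK ranked 9 by reads among the Rfam families of each library, of 294 in mouse and 212 in rat.

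Fragments that end at base 71 made up most of this difference. In mouse 5841 reads ended there, 497 rpm and 45.8% of placed reads (44.9 to 46.7). In rat 60 reads ended there, 4.09 rpm and 0.712% (0.544 to 0.916). The log2 ratio was -6.92 (-7.31 to -6.56). Without the reads ending at base 71, the placed reads stood at 588 rpm in mouse and 571 rpm in rat, and their ratio of -0.04 (-0.09 to 0.00) was not distinguishable from 0 at this depth. That value depends on the total, because Rfam snoRNA entries held 36.5% of mouse and 0.422% of rat listed reads. With these out of both totals the ratio of the same reads was -0.69. The end at base 71 and this alternative were chosen after the values had been seen.

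The end at base 71 was sharp. In mouse 77.4% of the 7547 reads that covered base 71 stopped there (76.4 to 78.3), against 2.21% of 2709 in rat (1.69 to 2.84). These shares depend on the start sites too. Reads have at least 18 nt, so those starting after base 54 covered base 71 but could not end there. Starts at bases 56 to 58 alone were 523 mouse and 1539 rat reads. The bases on either side were the last base of 54 and 48 mouse reads. In rat, these neighbours had 23 and 47 reads. The mouse reads ending at base 71 were spread over 106 sequences of 18 to 68 nt. A start at base 39 accounted for 38.2% of them, base 38 for 14.0%, base 45 for 9.11% and base 54 for 5.70%.

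The fragment of bases 39 to 71, 33 nt long, led the mouse library's 7SK reads with 2192 reads, 186 rpm and 17.2% of placed reads. It had 18 reads in rat, 1.23 rpm. It is present in 4 GENCODE genes, Rn7sk included, and carries both the GATC at base 42 and that at base 64. The form with 1 more base at its 5′ end had 800 mouse reads and 0 in rat. The 27-nt form from base 45, which starts within the GATC at base 42, had 523 and 1. The 18-nt form from base 54 had 332 and 3. Each of the 8 most abundant mouse fragments ended at base 71. The next sequences by count, in rank 9 and 10, were not placed on Rn7sk.

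**Figure D1:**
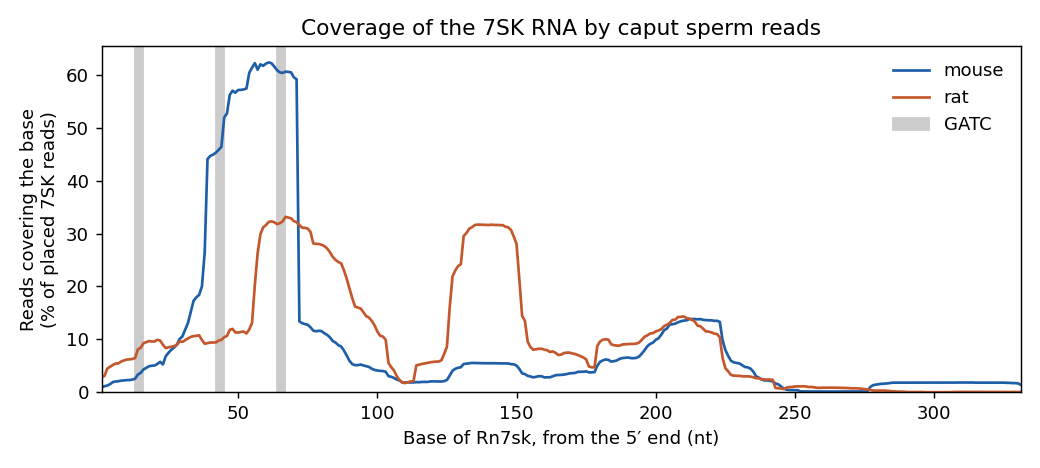
Reads covering each base of Rn7sk (x axis, nt from the 5′ end) as a percentage of the placed 7SK reads of the mouse library (blue) and the rat library (orange), with GATC shaded in grey. Mouse coverage peaks at base 61 with 62.3% of reads and drops after base 71, whereas rat coverage has a peak at base 67 with 33.2% and a further plateau up to base 150.

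The coverage plot shows how unevenly both libraries sampled the RNA. In mouse 7953 reads covered base 61, against a median of 519 reads per base over the RNA and a lowest value of 17. In rat the highest value was 2794 reads at base 67, the median 693, and 2 bases, 297 and 298, had no read. Placed reads whose middle lay in bases 1 to 110 were 75.1% of the total in mouse (74.4 to 75.9) and 48.6% in rat (47.5 to 49.7). Reads with their middle in bases 111 to 160 were 5.77% in mouse (5.37 to 6.19) and 32.3% in rat (31.3 to 33.3).

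The 5 most abundant placed rat sequences lay within bases 126 to 153. Scaled to listed reads, the band of bases 111 to 160 was 62.6 rpm in mouse and 186 rpm in rat, a log2 ratio of 1.57 (1.45 to 1.69), the opposite direction to 7SK as a whole. Reads that end at bases 150 to 153 were 18.7% of placed rat reads (17.8 to 19.5) and 2.61% of placed mouse reads (2.34 to 2.90). The 20-nt stretch common to the rat leaders was present in 2103 rat reads, 24.96% of those placed, and in 586 mouse reads, 4.59%.

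The leader of the rat library, bases 131 to 151, had 276 reads, 18.8 rpm, and 36 reads in mouse, 3.06 rpm. The fragment of bases 126 to 153 had 192 rat and 17 mouse reads. That of bases 126 to 150 had 169 and 33, and that of bases 114 to 150 had 105 and 0. No single rat fragment dominated: the leading one made up 3.28% of placed reads (2.91 to 3.68), and the 10 most abundant placed sequences made up 16.0%. In mouse the corresponding shares were 17.2% and 39.2%.

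A further rat set began within the mouse leader. Reads starting at bases 56 to 58 were 18.3% of placed rat reads (17.4 to 19.1) and 4.10% of placed mouse reads (3.76 to 4.46). Reads have at least 18 nt, so any read from these starts runs past base 71, in either library. The most abundant long form covers bases 57 to 103 and is shown as an example of the set.

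Rat, bases 57 to 103: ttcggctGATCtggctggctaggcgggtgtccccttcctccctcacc

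It had 106 rat and 15 mouse reads, and the form starting at base 56 had 105 and 19. At 47 and 48 nt both are longer than the selected fraction.

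**Figure D2:**
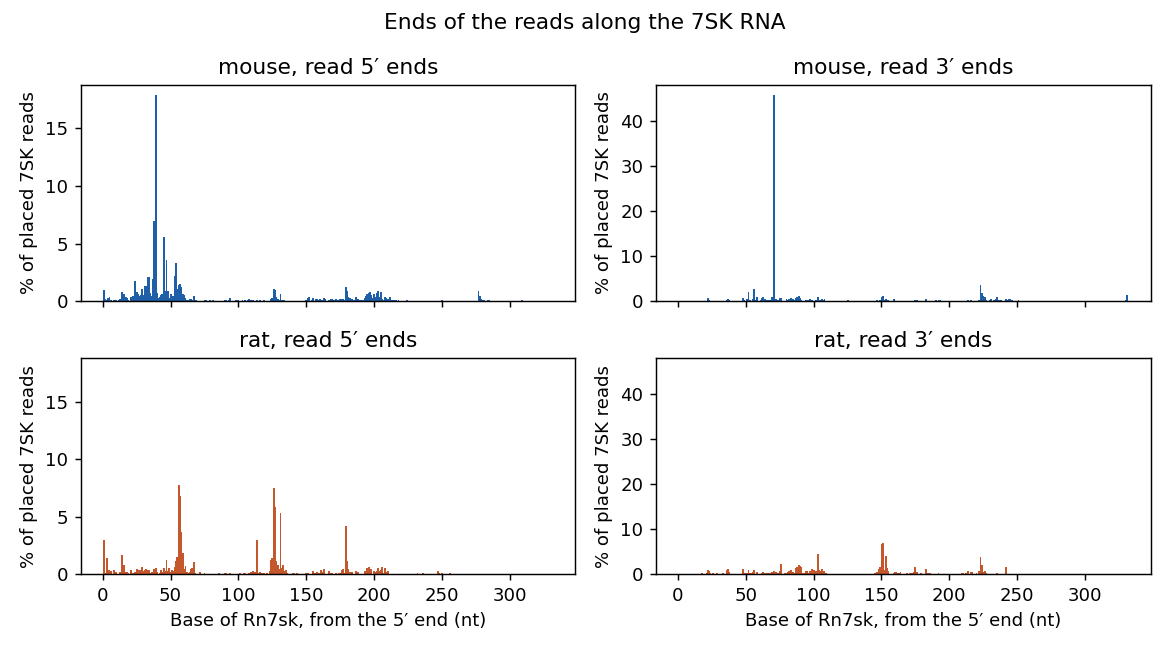
First bases (left) and last bases (right) of the placed reads along Rn7sk (x axis, nt from the 5′ end), as a percentage of placed 7SK reads, for mouse (top) and rat (bottom) on shared vertical scales. One last base, 71, holds 45.8% of mouse reads, while the most used last base in rat, 151, holds 7.03%.

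The plot of read ends shows different leading sites in the libraries. In mouse the most used first bases were 39 with 2281 reads, 38 with 889 and 45 with 706, against 44, 36 and 46 reads in rat. In rat they were 56 with 651 reads, 126 with 633 and 57 with 576, against 175, 136 and 188 reads in mouse. Among last bases, 71 was followed in mouse by 223 with 450 reads and 56 with 347, where rat had 328 and 71 reads. In rat the leading last bases were 151 with 592, 150 with 570 and 103 with 377, where mouse had 148, 113 and 108.

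One end site took a similar share of the placed reads in both libraries. Reads ending at bases 223 to 225 were 6.51% of placed reads in mouse (6.08 to 6.95) and 6.48% in rat (5.96 to 7.03). Scaled to listed reads they were higher in mouse, at 70.6 and 37.3 rpm, a log2 ratio of rat over mouse of -0.92 (-1.08 to -0.76). The band of bases 161 to 230 held 16.4% of mouse (15.8 to 17.1) and 17.6% of rat placed reads (16.8 to 18.4), or 178 and 101 rpm, a log2 ratio of -0.81 (-0.91 to -0.72). Its leaders, given because they are nearly the same sequence in both species, start 1 base apart.

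Mouse, bases 180 to 223: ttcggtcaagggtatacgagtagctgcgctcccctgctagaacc

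Rat, bases 179 to 223: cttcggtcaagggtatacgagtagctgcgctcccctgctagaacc

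The first had 70 mouse and 47 rat reads, and the second 43 and 74.

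Few placed reads came from the true ends of the RNA. Reads listed under other entries are left out of these counts, and the rat ends were taken from the mouse gene. Reads from base 1 were 122 in mouse, 0.956% of placed reads (0.795 to 1.14), and 248 in rat, 2.94% (2.59 to 3.33). The most abundant of these was the same in both libraries, with 52 mouse and 57 rat reads, and holds the GATC of base 13.

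Both, bases 1 to 22: ggatgtgagggcGATCtggctg

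Reads that reach base 331, the last of the gene, were 185 in mouse, 1.45% (1.25 to 1.67), and 4 in rat, 0.0475% (0.0129 to 0.121). The mouse set was led by a 55-nt fragment with 86 reads and 0 in rat, which ends in the run of T at which LARP7 binds.

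Mouse, bases 277 to 331: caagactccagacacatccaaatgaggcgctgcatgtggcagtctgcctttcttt

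Counted by windows, reads starting in the first 45 nt were 54.4% of placed reads in mouse (53.6 to 55.3) and 17.2% in rat (16.4 to 18.1). Reads ending in the last 45 nt were 1.94% in mouse (1.70 to 2.19) and 0.178% in rat (0.0997 to 0.293). The start window holds most of the mouse set that ends at base 71. With it widened to 60 nt, the values were 72.9% and 44.2%, as it then takes in the rat starts at bases 56 to 58.

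The GATC repeats were retained to different degrees. The GATC at base 64 was whole in 59.8% of placed mouse reads (58.98 to 60.7) and 31.1% of placed rat reads (30.1 to 32.1). That at base 42 was whole in 45.3% and 9.29%, and that at base 13 in 2.56% and 6.47%. Reads with both of the later copies were 34.4% in mouse (33.5 to 35.2) and 2.20% in rat (1.89 to 2.53). Reads without a whole GATC were 27.3% in mouse and 55.9% in rat. These shares follow from where the fragments lie and are no measure of HEXIM binding.

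**Figure D3:**
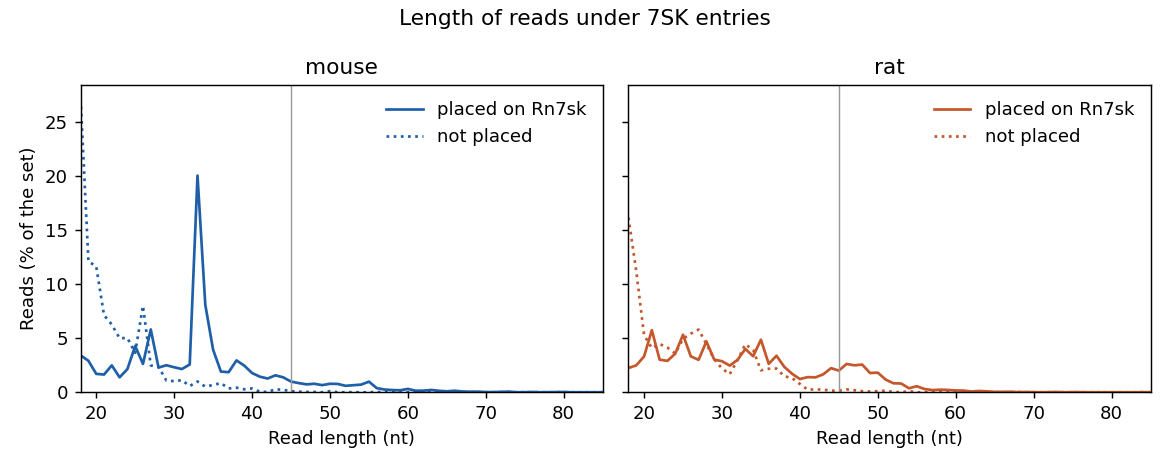
Length of reads under 7SK entries (x axis, nt) as a percentage of the set, for reads placed on Rn7sk (solid) and reads not placed (dotted) in mouse (left) and rat (right), with a grey line at 45 nt. Placed mouse reads are most frequent at 33 nt, with 20.1% of reads, placed rat reads are spread out, and unplaced reads are most frequent at 18 nt in both.

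Fragment length followed these sets. All 7SK reads together were most often 33 nt long in mouse but 18 nt long in rat. Placed reads were most often 33 and 21 nt long. Placed reads of 32 to 35 nt were 34.7% in mouse (33.9 to 35.5) and 15.2% in rat (14.5 to 16.0). The medians were close, at 33 and 32 nt. Placed reads longer than the 45-nt limit of the selected fraction were 10.1% in mouse and 16.8% in rat, against 7.94% and 2.74% among all listed reads. The longest placed reads had 80 nt in mouse and 93 nt in rat.

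The libraries shared many fragments but no leaders. Of the placed sequences, 879 occurred in both, which is 43.0% of the mouse and 36.0% of the rat sequences. They held 70.1% of mouse and 66.2% of rat placed reads. Among the 10 most abundant placed sequences of each library, 0 were in common, though 7 of the mouse and 8 of the rat leaders had at least 1 read in the other library. The same overlap was not counted over all listed sequences, so it cannot be called particular to 7SK. Single-read sequences were 43.4% of placed sequences in mouse and 57.5% in rat.

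A repeated base difference from Rn7sk was seen in both species. Differences are written as the base of Rn7sk, its position from the 5′ end and the base in the read. T84G was present in 164 of 1235 mouse reads that cover base 84, 13.3% (11.4 to 15.3), and in 202 of 2155 rat reads, 9.37% (8.18 to 10.7). It was spread over 110 mouse and 118 rat sequences. In 132 and 183 of these reads it lay more than 3 nt from either end. T84C followed with 14 mouse and 16 rat reads, and T86G with 13 and 16. None of the mouse sequences with T84G occurred letter for letter in a GENCODE transcript. Apart from T84G, the change with most reads was T331A in mouse, in 17 of 185 reads covering the last base, and T99C in rat, in 19 of 1067.

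The reads that were not placed on Rn7sk differed in length and strand from the placed reads. Unplaced reads numbered 4021 in mouse, 342 rpm, and 4185 in rat, 286 rpm, a log2 ratio of -0.26 (-0.32 to -0.20). They were shorter, with 50.9% of mouse and 32.7% of rat reads at 18 to 20 nt, against 8.03% and 8.05% of placed reads. All minus-strand reads under 7SK entries were among them, 2268 in mouse and 1480 in rat, which is 56.4% and 35.4% of the unplaced reads. Their match to the entry was poorer in mouse, where 5.89% had no mismatch to it, against 42.7% in rat.

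Their leading sequences are printed to show what these entries collect. The name of each gives its library and read count.

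Mouse, 178 reads: tgtgcttggctgaggagc

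Mouse, 124 reads: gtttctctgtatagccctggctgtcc

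Rat, 136 reads: cgcgcgcgggcgggcgcg

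Rat, 127 reads: tcggagctggggaccgaacccagggcc

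Rat, 40 reads: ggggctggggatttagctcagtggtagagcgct

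The mouse sequence with 124 reads occurred in 455 GENCODE genes on either strand, and 40.6% of unplaced mouse reads (39.1 to 42.2) occurred in at least 10 genes. The rat sequence with 40 reads differs by 1 base from mouse Bc1, an RNA polymerase III transcript related to the ID repeats of rodents, which are short interspersed elements. Of the unplaced rat reads, 21.6% (20.4 to 22.9) lay within 2 mismatches of Bc1, 426 reads in sense and 479 in antisense. In mouse 1 of 4021 did. The rat sequence with 127 reads had 3 mismatches to antisense Bc1 and so was not counted, and the share in rat depends on this limit. The 10 records with most reads held 73.8% of 7SK reads in mouse and 56.1% in rat, and 245 of the 292 mouse and 199 of the 278 rat records had no placed read. The rat record with most reads, 1435, had none that was placed.

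Some 7SK fragments were listed under other entries. Reads without mismatch to Rn7sk came to 13780 in mouse and 8939 in rat when every class was searched. Of these, 1445 mouse reads (10.5%) stood under 3 GenBank records and 999 rat reads (11.2%) under a single record typed as mRNA. The share of such exact reads of any class was 1172 rpm in mouse and 610 rpm in rat, a log2 ratio of -0.94 (-0.98 to -0.90).

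**Figure D4:**
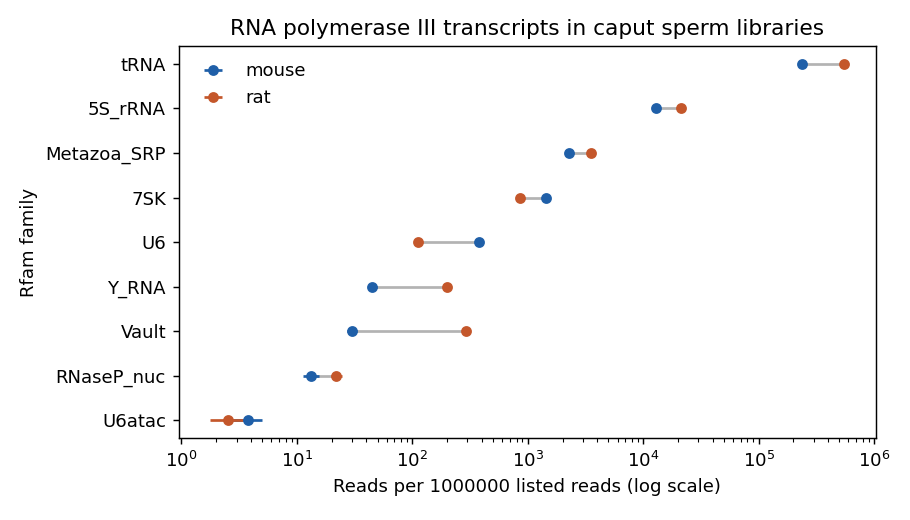
Reads per 1000000 listed reads (log scale) of Rfam families transcribed by RNA polymerase III in the mouse (blue) and rat (orange) library, with bars for 95% exact binomial intervals. 7SK lies at 1427 rpm in mouse and 861 rpm in rat, and U6 is also higher in mouse, while the intervals of U6atac overlap.

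Set beside other RNAs made by RNA polymerase III, 7SK had fewer reads than tRNA, 5S rRNA and the signal recognition particle RNA in both libraries, and more than the other families with reads. These are read counts, not scaled to the length of the RNA or the number of its genes. Of 10 families on the list, 9 had reads in both libraries, and RNase MRP RNA had 0 reads in each. A difference of at least 2-fold was taken as a change in size. By this rule 3 of the 9 were higher in rat and 1 lower. Over the 144 Rfam families with at least 100 reads in both libraries together, 29.9% were higher in rat and 51.4% lower, with a pseudocount of 0.5 read and 53 families at 0 in 1 library. The median log2 ratio of the 9 was 0.71, and that of the 144 was -1.28. The 144 include snoRNA families, whose entries held 36.5% of mouse but 0.422% of rat listed reads. They are thus no neutral background for the 9, and values without snoRNA families are not given here. 7SK, at -0.73, was within 2-fold, but it was past 2-fold lower in rat without snoRNA entries in the total (-1.38), of Rfam reads other than tRNA, rRNA and snoRNA (-1.51) and for sequences with at least 10 reads (-1.24).

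U6, a spliceosomal RNA of the nucleus like 7SK, had 376 rpm in mouse and 112 in rat, a log2 ratio of -1.74 (-1.82 to -1.66). Y RNA, which binds the Ro protein, had 45.1 and 201 rpm, a ratio of 2.15 (2.02 to 2.29). Vault RNA, part of the cytoplasmic vault particle, had 30.1 and 292 rpm, a ratio of 3.28 (3.12 to 3.44). tRNA had a ratio of 1.22, 5S rRNA 0.74 and signal recognition particle RNA, which serves protein export, 0.62. Nuclear RNase P RNA had 13.3 and 21.9 rpm, a ratio of 0.71 (0.43 to 0.999). U6atac rested on 44 and 37 reads, and its ratio of -0.57 (-1.24 to 0.10) did not differ detectably from 0.

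The mRNAs of 7SK partners were counted in mouse through RefSeq accessions. The 13 on the list summed to 1208 reads, 103 rpm, with 1 to 696 reads each. At least 1 read was found for 13 of 13, against 77.8% of all RefSeq genes with an mRNA accession. Hexim1, the inhibitor, had 65 reads, of which 47 matched the plus strand of the mRNA. Cdk9, the kinase of P-TEFb, had 32, of which 26 on the plus strand. Mepce had 28, of which 26, and Larp7 2 and Ccnt1, a cyclin T, 1, all on the plus strand. Hnrnpa2b1, one of the hnRNP proteins that bind free 7SK, had 696, of which 694. Over the list, 34 reads were on the minus strand. Rat partners were not analysed here.

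The label of purified sperm was checked in mouse by mRNA fragments. The 6 mRNAs of late spermatids and sperm counted (Prm1, Prm2, Tnp1, Tnp2, Odf1 and Smcp) summed to 120 reads, 10.2 rpm, with 4 to 46 reads each. The 6 of the caput epithelium (Lcn8, Lcn9, Adam7, Ros1, Crisp1 and Defb2) summed to 11547 reads, 982 rpm, of which Adam7 held 8900 and Defb2 held 1. The 3 leukocyte genes (Ptprc, Cd68 and Cd3e) summed to 19 reads, with Cd68 at 0. In the mouse library the epithelial fragments counted thus outnumbered the sperm ones, so the label of purified sperm cannot be taken as shown. The markers were chosen after their values were seen, and these counts do not measure purity. The rat library was not checked. The part of epithelial RNA in the 7SK reads was not tested.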

How the data were processed

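Small RNA of 18 to 45 nt was sequenced in 1 mouse and 1 rat library. The authors deposited raw read counts per distinct sequence, each matched to 1 entry with at most 2 mismatches, per the file headers. Bowtie 0.12.7, mm9 and rn5 are named without a role, per the submitters' processing notes. How reads were trimmed and filtered is not given in the sources used here. A mouse line holding only the sum of counts was left out. Minus-strand sequences were turned, since 78 mouse and 84 rat sequences were duplicates as printed and 0 after turning.

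Reads of Rfam 7SK entries were placed without gaps on the GENCODE vM21 Rn7sk transcript (GRCm38) in Python 3.11.15, which was tested on simulated data. Intervals are exact, Clopper-Pearson for shares and conditional binomial for ratios (SciPy 1.17.1). A count of 0 allows up to 3. The sequences named were the 10 most abundant under 7SK entries per library, the RNA polymerase III list and the 3 leading start and end bases. Alternatives changed the total, the mismatches, the strand, the length, the minimum count and the way 7SK reads are found. Members and lists were chosen with earlier results of these data known, and the windows of starts and ends, the bands of the RNA, the mRNA markers and the unplaced sequences after their values were seen. Partner and marker mRNAs were matched by RefSeq accession (table of GRCm38.p6).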

Additional observations from a re-analysis of the deposited data

How the results depend on the processing

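The log2 ratio of 7SK, -0.73, kept its sign under 13 of 15 alternatives. It moved in size under 12 of these and stayed about the same under 1, the plus strand of the entry (-0.70). It was -0.93 without the most abundant listed sequence, -1.38 without snoRNA entries in the total, -0.65 of Rfam reads, -1.51 of Rfam reads other than tRNA, rRNA and snoRNA, -0.87 at 18 to 45 nt, -1.24 for sequences with at least 10 reads, -0.56 without the leading 7SK sequence and -0.94 for exact Rn7sk reads of any class. Added after seeing the data were placed reads (-0.92), those not ending at base 71 (-0.042, not distinguishable from 0), and both with snoRNA out of the total (-1.56 and -0.69). It reversed to 0.84 for distinct sequences, and to 0.26 with 0 mismatches to the entry, where the total by construction keeps 82.0% of mouse but 43.2% of rat reads.

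The start-window share (54.4% in mouse, 17.2% in rat) was 72.9% and 44.2% with 60 nt, 68.6% and 10.7% for sequences with at least 10 reads, 30.1% and 22.8% for distinct sequences, and 58.4% and 19.1% at 18 to 45 nt. Without the leading sequence it was 45.0% in mouse. The end-window share in mouse (1.94%) was 2.34% without the leading sequence and 0.270% at 18 to 45 nt, which drops the 55-nt form. In rat (0.178%) it was 0.843% with 60 nt, 0 with at least 10 reads and 0.492% for distinct sequences. The modal length of 33 nt in mouse was 18 nt for distinct sequences and without the leading sequence. That of 18 nt in rat was 25 nt with 0 mismatches to the entry and 21 nt for placed reads.

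Leaving out a replicate was not possible with 1 library per species. No paired analysis was possible because each species has a single library. The 3′ end in rat rests on 15 reads, too few for more than its order of size.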
